A study of Mus musculus with 4 samples.

Results

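The S100 proteins are small calcium-binding proteins of the EF-hand family. They act as dimers or larger complexes, inside the cell on annexins, the cytoskeleton and enzymes, and, once released, on receptors such as RAGE (gene Ager) and TLR4. In the lung S100A8 and S100A9 are best known as calprotectin, the alarmin pair that fills the cytosol of neutrophils, while S100A4, S100A6, S100A10 and S100A11 are carried by many motile, immune and stromal cells. Here 7 members, S100a4, S100a6, S100a8, S100a9, S100a10, S100a11 and S100a13, were chosen by name from the 20076 genes of a single-cell count matrix that lists 17 S100 genes. Each was followed through 15 myeloid, lymphoid, stromal and epithelial classes, and for S100a8 and S100a9 the low level present in unrelated classes was measured as a background. No such background was measured for the other members.

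Whole lungs of 4 mice were dissociated and sequenced as 1 droplet library per mouse. The 2 WT mice were ERG fl/fl, with loxP-flanked alleles of the transcription factor ERG and no Cre. The 2 ERG CKO mice were CDH5-CreER(T):ERG fl/fl, in which the Cdh5 (VE-cadherin) promoter drives a tamoxifen-activated Cre. All 4 mice had received 5 daily injections of 0.5 mg tamoxifen, and lungs were taken 90 days later. Tamoxifen itself is therefore shared by both groups, and the recombinase was directed to endothelial cells (ECs), so a difference in a leukocyte or fibroblast is not one in a cell that the Cre was aimed at. No age or sex is attached to a single library.

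The libraries held 1852 to 3097 cells and 11263911 to 18646776 unique molecular identifiers (UMIs, each 1 captured transcript), with medians of 4611 to 4899 UMIs per cell. Only 7 of the 9363 barcodes occurred in more than 1 library. Cells were grouped into 29 clusters without using any S100 gene, and 24 of them were named by marker genes, leaving 1352 cells unnamed. Levels are given as CPM, the count of a gene scaled to a common UMI total of each class and library. Erg in ECs was at 85.4 and 90.1 CPM in WT and at 106 and 82.5 CPM in ERG CKO libraries. Counts of the whole gene do not show whether a loxP-flanked part was removed, so this measure does not check the genotype labels.

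All 7 genes lie on mouse chromosome 3 (build mm10, GRCm38). S100a13 (chr3:90514435-90524581), S100a4 (chr3:90603771-90606045), S100a6 (chr3:90612882-90624181), S100a8 (chr3:90668978-90670035) and S100a9 (chr3:90692632-90695721) share a stretch of 181 kb with S100a14, S100a16, S100a3, S100a2, S100a5 and S100a7a. S100a11 (chr3:93520488-93526287) and S100a10 (chr3:93555080-93564643) are neighbours with a gap of 28.8 kb between them. S100a9 is on the minus strand and the other members are on the plus strand. S100a8 and S100a9 are separated by 22.6 kb and their levels followed each other over the classes (Pearson r = 0.987 of log2(CPM + 10) over 15 classes, which share the same 4 libraries). For that reason the 250 bases before their starts were searched for 3 short motifs on both strands and compared with all promoters. They were a C/EBP-type motif (TTNNGNAA), an ETS-type motif (AGGAAG, the family of ERG and PU.1) and a TATA box (TATAAA). Motif letters are in capitals in the windows of 30 bases that follow, written 5′ to 3′ along the gene, from RefSeq on GRCm38.p6. They are shown because they hold every match before the 2 genes, and no match overlapped another.
S100a8, ETS-type, chr3:90668843-90668872, plus strand (CTTCCT is AGGAAG read on the other strand): cccatcctgattCTTCCTgctgggtactcc
S100a8, ETS-type, chr3:90668888-90668917, plus strand: ccaacactcccaCTTCCTcagactcagaaa
S100a8, C/EBP-type, chr3:90668943-90668972, plus strand: catggacttggTTAGGAAAcagaggctgtg
S100a8, TATA box, chr3:90669029-90669058, plus strand: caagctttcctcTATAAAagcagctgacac
S100a9, C/EBP-type, chr3:90695939-90695968, minus strand: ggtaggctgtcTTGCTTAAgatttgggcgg
S100a9, C/EBP-type, chr3:90695833-90695862, minus strand: agggctgggaaTTTCACAAaacatcagagc

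The C/EBP-type motif was in both promoters, in 1 place before S100a8 and in 2 before S100a9, while 36.8% of all 32851 promoter entries hold it. The ETS-type motif occurred in 2 places before S100a8 and nowhere before S100a9 (29.5% of all promoters hold it). A TATA box lay 30 bases before the RefSeq start of S100a8, and none lay before S100a9 (12.4% of all promoters hold it). The GENCODE gene of S100a8 given above begins further upstream than the RefSeq start, so the TATA window lies inside the GENCODE interval. Among the other 4 members with an entry, S100a4 had 1 ETS-type match and 1 TATA box, and S100a6, S100a11 and S100a13 had no match in this window. These matches describe letters and were not tied to any measurement of binding.

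S100a8 and S100a9 were neutrophil genes in these lungs. S100a8 stood at 50227 and 53414 CPM in the neutrophils of the WT mice and at 62872 and 48116 CPM in those of the ERG CKO mice, from 38, 55, 82 and 87 cells. S100a9 stood at 58498 and 67766 CPM in WT and at 74574 and 59734 CPM in ERG CKO neutrophils. The genotypes overlapped for both genes, and together they made up 12.2% of all neutrophil UMIs. Neutrophils had a median of 287 UMIs of the pair per cell (lowest 2, highest 6103). Every neutrophil had a S100a9 UMI, and 94.7% to 100% of them per library had a S100a8 UMI. The class was named from Cxcr2, Csf3r, Retnlg and other neutrophil markers, with no S100 gene among them.

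**Figure D1:**
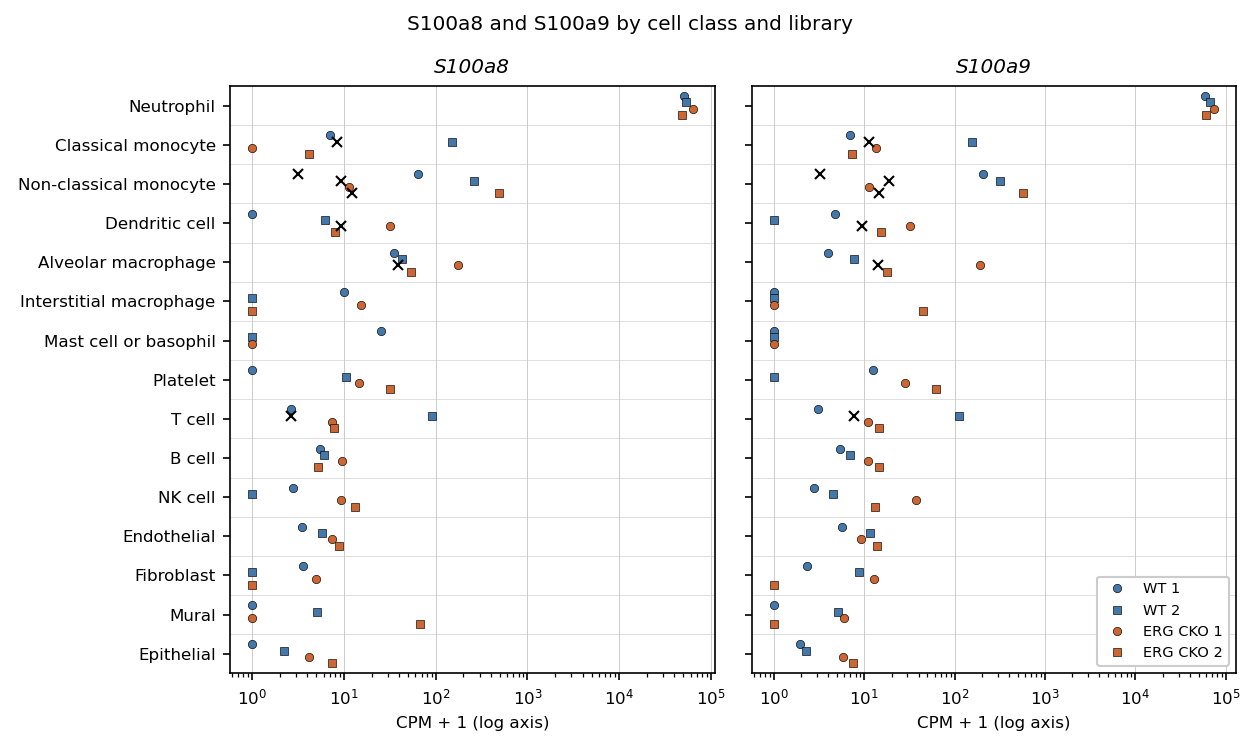
S100a8 and S100a9 in CPM + 1 on a log axis, by cell class, with 1 point per library (blue WT, orange ERG CKO; circle replicate 1, square replicate 2). Crosses give the value of that library without the 12 cells outside the neutrophil class that held over 20 UMIs of the pair. Neutrophils sat at 48116 to 74574 CPM, and without the 12 cells every other point was at 66.8 CPM or less.

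No difference between genotypes in the neutrophil level was detected. The log2 fold change (ERG CKO over WT) was 0.15 with a standard error (SE) of 0.22 for S100a8 and 0.14 with an SE of 0.22 for S100a9, by edgeR's quasi-likelihood test on UMIs summed per library (Benjamini-Hochberg adjusted p = 0.989 and 0.992). Without ERG CKO replicate 1 both values changed sign, to -0.12 and -0.088. Of the 2946 genes tested in neutrophils edgeR called 0%, with 142 at an unadjusted p under 0.05, and DESeq2 called 0 as well. The other members in neutrophils were S100a6 at 4013, 4514, 5216 and 3971 CPM and S100a11 at 5307, 3896, 5123 and 5190 CPM in WT 1, WT 2, ERG CKO 1 and ERG CKO 2, which is the order of libraries used from here on. Both were higher in neutrophils than in every other class. S100a4 was at 0 in the neutrophils of 3 libraries, where 0 counts allow up to 24.6 CPM in WT 1, 14.7 CPM in WT 2 and 9.78 CPM in ERG CKO 2 (3 counts of the class total), and at 19.2 CPM in ERG CKO 1, with 1 UMI in each of 7 cells.

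Outside neutrophils almost all S100a8 and S100a9 came from few cells. Of the 11995 UMIs of the pair in other classes and unnamed clusters, 90.4% lay in 12 cells with over 20 UMIs each. Of these, 7 were in non-classical monocytes, 1 each in alveolar macrophages, classical monocytes, dendritic cells and T cells, and 1 in an unnamed cluster led by histone and mitotic genes. The 12 cells also held 21 to 166 UMIs of 6 neutrophil genes (Retnlg, Csf3r, Cxcr2, Il1r2, G0s2 and Mmp9), where neutrophils had a median of 77 and 83.4% of the remaining 9089 cells had none. Only 1 of them, the T cell in WT 2, was called a doublet by Scrublet. The cell of the mitotic cluster, in ERG CKO 2, had 24264 UMIs, of which 3769 were S100a8 and 4107 S100a9. It also held 841 UMIs of Ngp, 1528 of Camp and 228 of Ltf, genes of neutrophil secondary granules that are made during maturation. In that library 77.2% of all S100a8 UMIs were in neutrophils, against 94.2% to 97.6% in the other libraries.

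**Figure D2:**
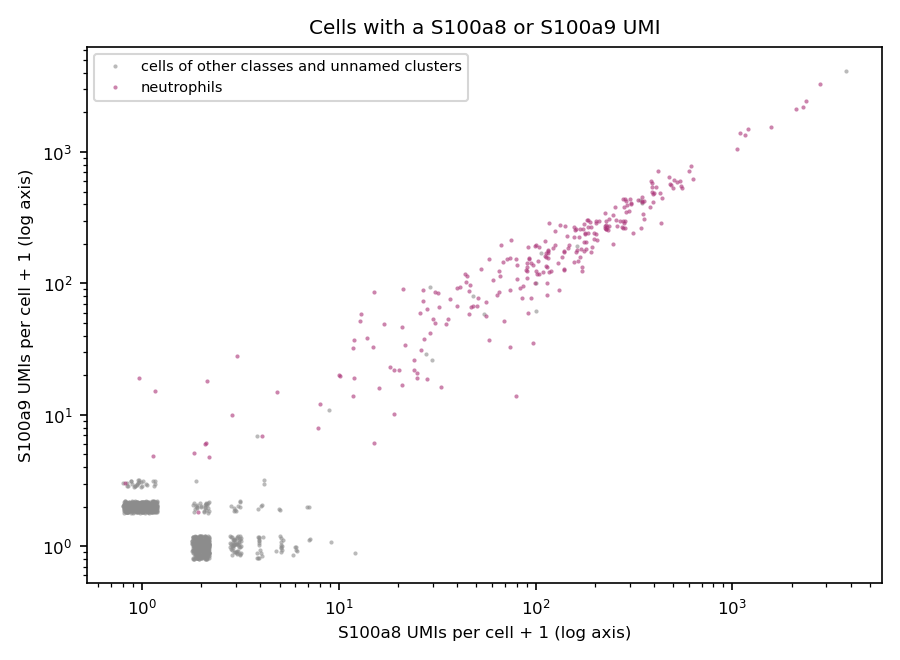
UMIs of S100a8 and of S100a9 per cell, each plus 1 on a log axis with a small random shift, for all cells with at least 1 UMI of either (purple neutrophils, grey all other cells). Grey cells crowd at 1 UMI, and the 12 grey cells over 20 UMIs lie within or above the range of the purple ones.

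Those single cells set the level of a whole class. In alveolar macrophages S100a9 was at 189 CPM in ERG CKO 1 and at 2.92 to 16.7 CPM in the other libraries, and the first value fell to 13.2 CPM without 1 cell of 765 UMIs of the pair. T cells of WT 2 were at 111 CPM of S100a9, and at 6.61 CPM without 1 cell of 352 UMIs. Non-classical monocytes were at 202, 320, 10.4 and 567 CPM of S100a9 before the 7 cells were left out and at 2.19, 17.7, 10.4 and 13.6 CPM after it. Without the 12 cells classical monocytes, whose human counterparts are known for high S100A8 and S100A9, were at 5.96, 10.3, 12.5 and 6.29 CPM of S100a9, a range that overlapped those of T cells and ECs.

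What remained was a low level that was alike in unrelated classes and differed between libraries. Without the 12 cells S100a9 was at 2.09, 6.61, 9.91 and 13.6 CPM in T cells, at 4.42, 6.01, 9.86 and 13.6 CPM in B cells and at 4.67, 10.7, 8.25 and 12.9 CPM in ECs. The whole libraries held 495, 1093, 1493 and 2046 CPM of S100a9, the same order of libraries as in T and B cells. As a share of the neutrophil level in the same library, T cells, without the 12 cells, were at a mean of 0.0123% ± 0.00800 (SD, n = 4) for S100a9 and 0.00765% ± 0.00538 for S100a8. With all cells counted the T cell means were 0.0509% and 0.0489%, and in B cells they were 0.0131% and 0.0101%. Among the other neutrophil genes of the list, with all cells counted, the mean T cell level was at 0.0112% (Ngp) to 0.269% (Slpi) of the neutrophil level, with Retnlg at 0.0306%, Csf3r at 0.114% and Mmp9 at 0.257%, apart from Stfa2l1 at 0 and Cxcr4, a receptor of many leukocytes, at 27.0%. In cells outside neutrophils and the 12, 90.6% had no UMI of the pair, and 81.7% of those with any had a single one. Without the 12 cells the share of T cells with a S100a9 UMI was 1.30%, 3.65%, 5.76% and 8.62%, and that with a S100a8 UMI 1.04%, 1.09%, 3.69% and 4.31%, at median depths of 6110 to 6371 UMIs in WT and 5858 to 6336 UMIs in ERG CKO. T cells are taken as lacking both genes, so a share at or below these values in another class was read as background.

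The low level also differed between libraries of the 2 genotypes. ERG CKO libraries had more neutrophils (2.65% and 4.70% of cells) than WT libraries (1.68% and 2.56%), and, without the 12 cells, the higher S100a9 level in T cells, B cells and NK cells, while in ECs the genotypes overlapped. With 2 libraries a group the smallest p an exact permutation test can give is 0.333, so that test cannot reach 0.05 here, and the part of neutrophil number in the background was not tested.

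Alveolar macrophages stood apart from this level for S100a8. Without the 1 high cell they held 34.1, 41.8, 38.0 and 53.1 CPM of S100a8, where T cells held 1.67, 1.65, 6.34 and 6.78 CPM, while their S100a9, at 2.92 to 16.7 CPM, overlapped that of T cells. A S100a8 UMI was seen in 31.6%, 32.6%, 32.7% and 37.1% of alveolar macrophages at medians of 16814, 15154, 15419 and 15121 UMIs per cell. After all cells were thinned to 1000 UMIs the share was 3.14%, 2.33%, 6.13% and 5.43% in alveolar macrophages (high cell included) against 0.266%, 0.365%, 0.714% and 0.873% in T cells. After thinning to 500 UMIs the gap was smaller in ERG CKO, with means of 1.44% in alveolar macrophages and 1.09% in T cells. The WT means were 1.42% and 0.364%. The ratio of the pair differed too. S100a8 made up 92.1% of the S100a8 plus S100a9 UMIs in the alveolar macrophages of WT 1 (95% exact binomial interval 85.5% to 96.3%), 86.4% in WT 2 (77.4% to 92.8%), 74.2% in ERG CKO 1 (65.6% to 81.6%) and 76.1% in ERG CKO 2 (68.1% to 82.9%). In neutrophils it made up 46.2%, 44.1%, 45.7% and 44.6% (45.1% over all libraries, interval 44.9% to 45.4%). T cells (34.7%, interval 25.3% to 45.2%, all libraries pooled), B cells (40.0%, 27.6% to 53.5%) and ECs (37.6%, 30.8% to 44.9%) stood at or under the neutrophil ratio. In each of the 4 libraries the alveolar macrophage interval lay above that of the neutrophils. These intervals cover counting error only. The source of these counts was not tested. Over the list of other neutrophil genes, with all cells counted, the mean alveolar macrophage level ran from 0% (Stfa2l1) to 47.4% (Wfdc21) of the neutrophil level. Slpi was at 23.1%, Cxcr4 at 21.6%, Trem1 at 8.70%, Mmp8 at 2.92%, Clec4d at 2.72% and Cxcr2 at 0.976%, while Camp, Ltf and Ngp were at 0.0488% or less and S100a8 itself was at 0.134%.

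**Figure D3:**
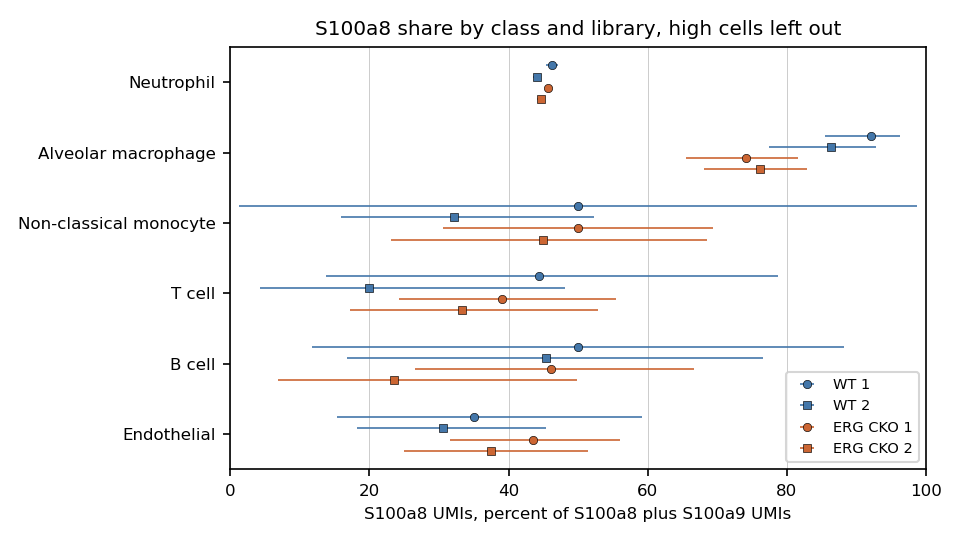
S100a8 UMIs as a percent of S100a8 plus S100a9 UMIs, by class, with 1 point per library and its 95% exact binomial interval, without the 12 high cells. The 4 alveolar macrophage points lie between 74.2% and 92.1%, and the 4 neutrophil points between 44.1% and 46.2%.

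The genotype comparison of S100a8 and S100a9 in alveolar macrophages turned on 1 cell. Without it the log2 fold changes were 0.28 (SE 0.21, adjusted p = 0.996) and 1.75 (SE 0.41, adjusted p = 0.541). With it the log2 fold changes were 1.64 (SE 0.43, adjusted p = 0.626) and 4.58 (SE 0.99, adjusted p = 0.374) by edgeR, in a class where 0% of 9271 genes were called (441 at an unadjusted p under 0.05, and 1 called by DESeq2). When the genotype difference was compared between alveolar macrophages and T cells of the same libraries, S100a8 differed by 4.06 on the log2 scale (SE 0.83, adjusted p = 0.0409) and S100a9 by 6.48 (SE 0.80, adjusted p = 0.000275), against 0.216% of all genes called in that test. Without the 12 cells these differences were -1.72 (adjusted p = 0.519) and 0.19 (adjusted p = 0.998). Neutrophils against T cells gave 2.02 for S100a8 and 1.41 for S100a9 (adjusted p = 1 for both, 0.206% of genes called), and without the 12 cells both changed sign, to -1.66 and -1.25 (adjusted p = 1 for both).

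The 5 other members were counted in many classes, each with its own order of levels. S100a4, a motility-linked member that binds non-muscle myosin, was a gene of monocytes, dendritic cells and a group of T cells. Classical monocytes held 2611, 3126, 2460 and 2611 CPM, above all other classes. Dendritic cells held 529, 1102, 1007 and 1275 CPM and non-classical monocytes 1171, 844, 811 and 980 CPM, and these 2 classes overlapped. T cells followed at 465, 481, 222 and 576 CPM, and NK cells at 191, 118, 150 and 138 CPM. Fibroblasts, in which this gene is often used as a marker under the name Fsp1, had only 35.3, 5.12, 30.4 and 69.6 CPM, in 2.74% to 5.60% of cells. ECs (5.02 to 28.7 CPM) and B cells (at most 11 CPM) had lower means, with ranges that overlapped that of fibroblasts.

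**Figure D4:**
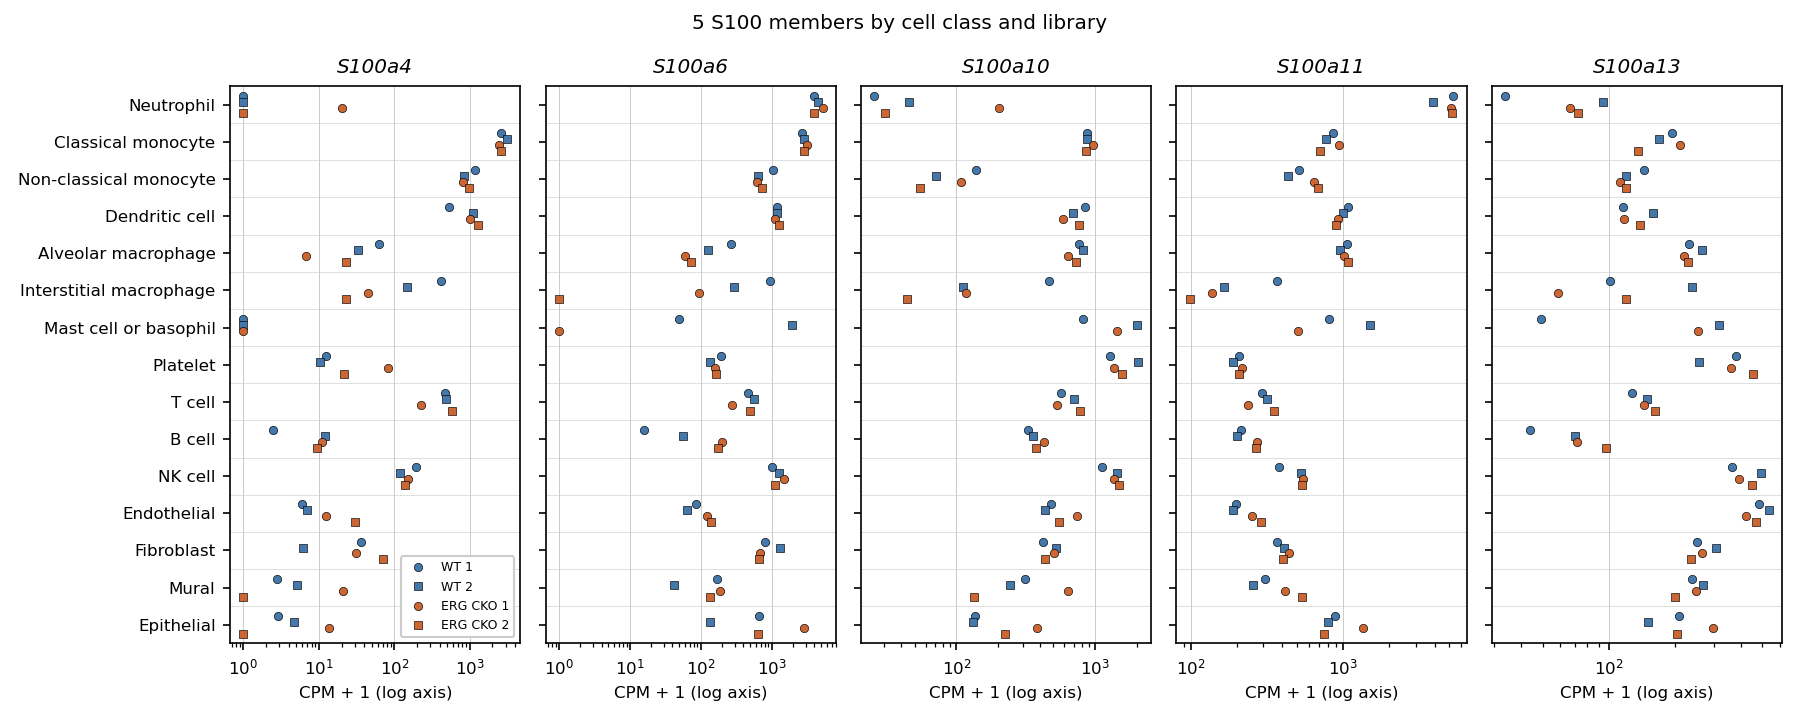
S100a4, S100a6, S100a10, S100a11 and S100a13 in CPM + 1 on log axes, by cell class, with 1 point per library (colours and shapes as above; the axes differ between genes). S100a4 peaks in classical monocytes, S100a6 and S100a11 in neutrophils, S100a10 is low in neutrophils and non-classical monocytes, and S100a13 lies between 32.8 and 535 CPM.

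The T cell level of S100a4 came from 1 of the 3 T cell clusters. Cluster 10, led by Icos, Ctla4, Cxcr6 and Areg, held 1645, 1718, 1007 and 2066 CPM, whereas cluster 7 (led by genes such as Lef1, Cd4 and Ccr7) held 1.46 to 4.19 CPM and cluster 8 (Cd8b1, Cd8a, Lef1, Ccr7) 1.85 to 5.09 CPM. S100a6 followed the same division, with 1598, 2003, 1249 and 1749 CPM in cluster 10 against 1.46 to 9.08 CPM in cluster 7 and 1.85 to 21.4 CPM in cluster 8. S100a10 was at 1328, 1653, 1384 and 2054 CPM in cluster 10 and at 225 to 256 CPM in cluster 7, and S100a11 at 705 to 965 CPM against 67.2 to 75.7 CPM. An unnamed cluster with Ccl5, Gzmk, Cd8b1 and Nkg7 among its leading genes had 269 to 454 CPM of S100a4 and 806 to 1255 CPM of S100a6. In cluster 10 no member was called between genotypes (log2 fold changes -0.14 for S100a4 and -0.28 for S100a6, adjusted p = 0.984 and 0.848, with 0.162% of 5547 genes called by edgeR).

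S100a6 (calcyclin), which binds annexins and the calcyclin-binding protein Cacybp, was highest in neutrophils, then in classical monocytes at 2659, 2847, 3158 and 2825 CPM. NK cells (1016 to 1490 CPM) and dendritic cells (1117 to 1282 CPM) came next with overlapping ranges. Fibroblasts had 809, 1319, 690 and 669 CPM, and a S100a6 UMI was seen in 68.0% to 75.2% of them. At the low end were alveolar macrophages (58.7 to 269 CPM), B cells and ECs.

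Over all classes 70 pairs of a member and a class passed the filter on low counts in 13 classes, and 1 was called between genotypes at an adjusted p of at most 0.05. It was S100a6 in B cells, where WT libraries had 14.7 and 56.1 CPM and ERG CKO libraries 197 and 175 CPM. Both ERG CKO values lay above both WT values, and the log2 fold change was 2.30 (SE 0.30, adjusted p = 0.000231 by edgeR's quasi-likelihood test, higher in 2 of 2 ERG CKO libraries). In B cells 0.292% of the 6847 genes tested were called. The percentages in the other classes were 3.06% in ECs, 0.537% in fibroblasts, 0.433% in dendritic cells, 0.117% in T cells, 0.0463% in mural cells, 0.0234% in classical monocytes and 0.0195% in NK cells. They were 0% in epithelial cells, non-classical monocytes and platelets, as in the 2 classes above (495, 385 and 53 genes at an unadjusted p under 0.05, and 12, 0 and 0 called by DESeq2). DESeq2 gave a like fold change for S100a6 in B cells, 2.38 with an SE of 0.91, and did not call it (adjusted p = 0.99995).

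The B cell difference lay in few cells. Cells with 3 or more S100a6 UMIs numbered 0 of 174 (which allows up to 1.72%) and 4 of 209 in WT and 20 of 251 and 9 of 194 in ERG CKO, and these 33 cells carried 445 of the 513 S100a6 UMIs of all 828 B cells. The highest count was 84 UMIs, in a cell of ERG CKO 2. All 33 had a Cd79a UMI and none had a Cd3e UMI, 4 had a UMI of the 6 neutrophil genes, and 1 (in WT 2) was called a doublet. Their median depth was 8534 UMIs against 4458 UMIs in the other B cells. Leaving out the highest cell of every gene in every library gave a log2 fold change of 2.69 (adjusted p = 5.03e-06), and leaving out called doublets 3.08 (1.68e-11). Leaving out WT replicate 1 or 2 gave log2 fold changes of 1.69 and 3.78, each from 1 WT mouse. Any S100a6 UMI was seen in 5.17%, 8.61%, 17.5% and 11.9% of B cells, and in 2.40%, 2.91%, 7.69% and 3.68% after thinning to 1000 UMIs. Erythroid markers were at 20.6, 7954, 48.6 and 17.8 CPM in B cells, and T cell markers at 14.7, 60.1, 9.15 and 104 CPM, neither in the order of S100a6. Platelet markers were at 1.47 and 4.01 CPM in WT and at 35.9 and 15.7 CPM in ERG CKO B cells, in the same order of libraries as S100a6 level, and their part in the result was not tested.

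Ahnak, the giant scaffold protein that S100a10 and annexin A2 recruit to the membrane, was also called in B cells. It was at 67.8 and 66.1 CPM in WT and at 197 and 189 CPM in ERG CKO (log2 fold change 1.56, SE 0.19, adjusted p = 9.86e-05). Ahnak stood at 472 CPM in the 33 B cells with 3 or more S100a6 UMIs and at 110 CPM in the others. In the others alone it was at 67.8 and 59.4 CPM in WT and at 158 and 132 CPM in ERG CKO, so the groups stayed apart there.

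In ECs, the cells to which Cre was directed, S100a6 was at 84.3 and 62.2 CPM in WT and at 122 and 139 CPM in ERG CKO. The groups did not overlap, and the log2 fold change of 0.79 (SE 0.17) had an adjusted p of 0.0516, just over the threshold, in a class where 3.06% of genes were called. It passed the threshold with DESeq2 (adjusted p = 0.0347) and without the highest cell of every gene (1.07, adjusted p = 0.0149), and its adjusted p was 0.0368 and 0.280 when the first and the second WT mouse was left out, and 0.0298 and 0.0628 for the ERG CKO mice. S100a11 was at 198 and 190 CPM in WT and at 253 and 289 CPM in ERG CKO (0.44, SE 0.13, adjusted p = 0.126). S100a10 was at 483 and 434 CPM in WT and at 744 and 547 CPM in ERG CKO (0.46, SE 0.18, adjusted p = 0.255). S100a4 was at 5.02 and 5.96 CPM in WT and at 11.4 and 28.7 CPM in ERG CKO (1.75, SE 0.47, adjusted p = 0.106 by edgeR and 0.0361 by DESeq2), from 14, 19, 54 and 78 UMIs. A single cell of cluster 3 held 40 of the 78 UMIs in ERG CKO 2. In ERG CKO 1 a single cell of cluster 12 held 15 of the 54. S100a13 was at 481 and 535 CPM in WT and at 421 and 467 CPM in ERG CKO (-0.24, SE 0.13, adjusted p = 0.454).

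The EC class was a mixture of 5 clusters with unlike S100a6 levels and unlike numbers of cells by library. Cluster 2 gave 260 and 244 cells in WT and 198 and 75 cells in ERG CKO, and cluster 12 gave 49 and 73 cells in WT and 126 and 102 in ERG CKO. Cluster 16, led by genes such as Vwf, Slc6a2 and Selp, held 496, 267, 242 and 381 CPM. Clusters 2 (Iigp1, Gpihbp1, Plvap) and 6 (Cxcl12, Gpihbp1, Sema3g) held 17.3 to 47.6 CPM in all libraries. In cluster 12, led by Ednrb, Fibin, Igfbp7 and Emp2 with Car4 and Kdr among the top genes, S100a6 was at 25.7 and 14.9 CPM in WT and at 264 and 156 CPM in ERG CKO. The share of these cells with a S100a6 UMI was 8.16%, 8.22%, 44.4% and 29.4%, and 2.13%, 2.74%, 15.9% and 12.7% after thinning to 1000 UMIs. A fit to cluster 12 alone, added after its values were seen, gave a log2 fold change of 3.42 (SE 0.34, adjusted p = 2.40e-06), and 2.97 to 3.77 without any 1 library. S100a11 (1.04, SE 0.20, adjusted p = 0.00174) and S100a10 (0.64, SE 0.19, adjusted p = 0.0317) were also called there, and S100a13 was not (-0.07, SE 0.17, adjusted p = 0.884). In this cluster 11% of 7232 genes were called. S100a10 did not pass the threshold without ERG CKO replicate 1 (adjusted p = 0.219), without WT replicate 2 (0.380) or with DESeq2 (0.155), and S100a11 did not without WT replicate 2 (0.0724).

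**Figure D5:**
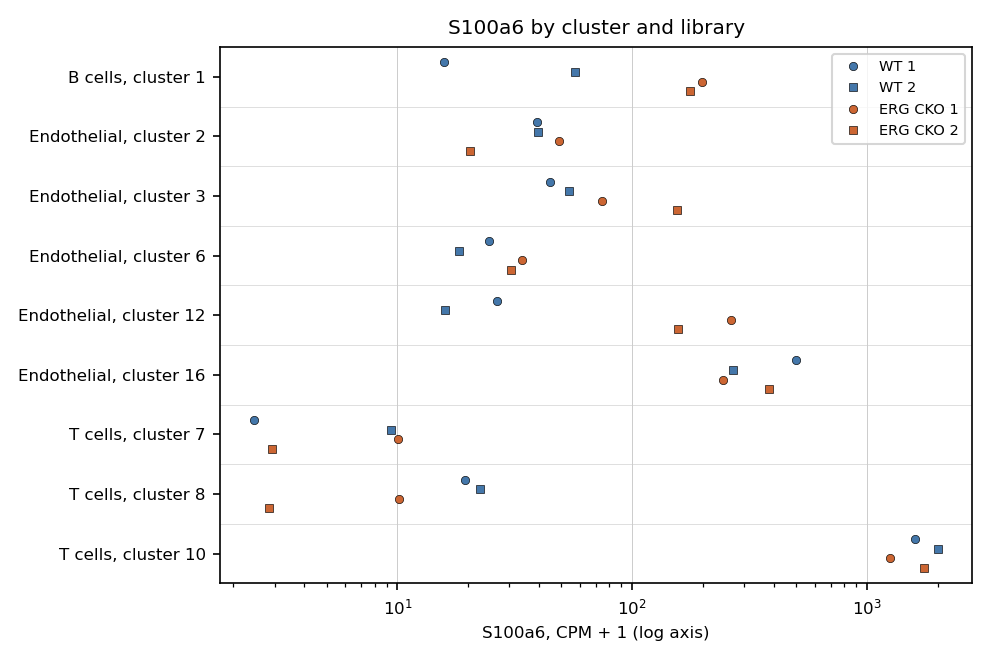
S100a6 in CPM + 1 on a log axis, in the B cell cluster, the 5 EC clusters and the 3 T cell clusters, with 1 point per library (blue WT, orange ERG CKO). ERG CKO points lie above WT points in B cells and in EC clusters 3, 6 and 12 (in cluster 12, 264 and 156 CPM against 25.7 and 14.9). They lie below WT points in T cell cluster 8. EC clusters 2 and 16 and T cell clusters 7 and 10 overlap.

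Markers of other cells moved with genotype in the same cells. In cluster 12 the sum of 8 endothelial markers was 21716 and 22232 CPM in WT and 12542 and 12944 CPM in ERG CKO. Platelet markers were at 106 and 153 CPM in WT and 493 and 335 CPM in ERG CKO, and epithelial markers at 11.4 and 11.2 against 128 and 131 CPM. Other sets fell. Interstitial macrophage markers were at 234 and 168 CPM in WT and 61.6 and 41.6 CPM in ERG CKO. Non-classical monocyte markers were at 1087 and 888 against 665 and 706 CPM. Over all ECs the erythroid markers were at 41.6 and 50.2 CPM in WT and 1516 and 2190 CPM in ERG CKO, and the NK cell markers at 8.61 and 5.02 against 22.6 and 81.0 CPM. The 8 neutrophil markers summed to 1.87 to 12.3 CPM in cluster 12, with Cxcr2 and Trem1 at 0, and the 8 NK cell markers were at 8.56 and 7.46 CPM in WT and at 106 and 38.5 CPM in ERG CKO. The part of these markers in the S100a6 result was not tested. Of the other EC clusters, cluster 3 (led by Emcn, F8, Pcdh17 and Scn7a) had S100a6 at 43.7 and 52.7 CPM in WT and 73.2 and 154 CPM in ERG CKO (1.11, SE 0.32, adjusted p = 0.0441) and S100a11 at 146, 168, 236 and 280 CPM (0.64, SE 0.18, adjusted p = 0.0324), with 10.1% of genes called. DESeq2 called neither (adjusted p = 0.104 and 0.185), and both lost the call without ERG CKO replicate 2 (0.222 and 0.0961), WT replicate 1 (0.153 and 0.239) or WT replicate 2 (0.108 and 0.107). In clusters 2, 6, 16, 7, 8 and 13 (the unnamed cluster with Ccl5) no member was called, and 0.0116%, 0.843%, 0.055%, 0.0199%, 0% and 0.0194% of all genes were (in cluster 8, 267 genes at an unadjusted p under 0.05, and 0 called by DESeq2).

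In alveolar macrophages and fibroblasts the fitted S100a6 difference was negative, though neither passed the test. In alveolar macrophages it was at 269 and 124 CPM in WT and at 58.7 and 72.3 CPM in ERG CKO (log2 fold change -1.60, SE 0.29, adjusted p = 0.284), and S100a4 was at 62.3 and 32.4 CPM against 5.75 and 21.7 CPM (-1.88, SE 0.45, adjusted p = 0.560). The groups did not overlap for either gene, and neither passed the test. Without WT replicate 1 the log2 fold changes were -0.92 for S100a6 and -1.29 for S100a4, and without WT replicate 2 they were -2.03 and -2.22. Each of these fits has 1 WT mouse. The highest single cell held 120 of 829 S100a6 UMIs in WT 1. In fibroblasts S100a6 gave -0.63 (SE 0.23, adjusted p = 0.432), with ERG CKO libraries below both WT libraries. When the genotype difference was compared between fibroblasts and ECs of the same libraries, S100a6 differed by -1.40 (SE 0.29, adjusted p = 0.0239, 0.84% of 11076 genes called), and by -1.57 (adjusted p = 1.45e-12) without the highest cell of every gene. Other markers moved with genotype in fibroblasts. The 8 fibroblast markers were at 9191 and 8654 CPM in WT and at 5955 and 5998 CPM in ERG CKO, and platelet markers at 74.6 and 82.0 against 617 and 905 CPM. Interstitial macrophage markers were at 83.7 and 97.4 CPM in WT and at 300 and 1087 CPM in ERG CKO, and mural markers at 373 and 361 against 559 and 1098 CPM. Endothelial markers were at 3700 to 5563 CPM with the genotypes overlapping, and the part of these markers in the S100a6 values was not tested. Between alveolar macrophages and T cells, S100a4 differed by -1.63 (SE 0.30, adjusted p = 0.0204) and S100a6 by -1.10 (SE 0.31, adjusted p = 0.317). Without the 12 high cells these were -1.64 (adjusted p = 0.00865) and -1.52 (adjusted p = 0.0223).

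S100a10, which pairs with annexin A2 in a complex that binds tissue plasminogen activator (Plat), was broad. Platelets held 1285, 2036, 1370 and 1555 CPM and NK cells 1125, 1432, 1361 and 1480 CPM, with overlapping ranges. Classical monocytes stood at 853 to 971 CPM, alveolar macrophages at 639 to 818 CPM, ECs at 434 to 744 CPM and B cells at 329 to 427 CPM. Non-classical monocytes (53.8 to 138 CPM) and neutrophils (24.6, 44.2, 203 and 29.3 CPM) had the lowest means, so the 2 monocyte classes did not overlap. S100a11 (calgizzarin), an annexin A1 partner, was highest in neutrophils, and alveolar macrophages (949 to 1079 CPM), dendritic cells (900 to 1069 CPM) and epithelial cells (753 to 1354 CPM) overlapped below them. ECs (190 to 289 CPM), B cells (200 to 270 CPM) and platelets (189 to 217 CPM) were low. In non-classical monocytes S100a11 was at 512 and 433 CPM in WT and at 644 and 683 CPM in ERG CKO (log2 fold change 0.44, SE 0.14, adjusted p = 0.910).

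S100a13, which takes part in the release of FGF1 and interleukin-1α from cells, was spread over many classes. ECs (421 to 535 CPM) and NK cells (363 to 491 CPM) were the highest classes and overlapped, followed by platelets (256 to 453 CPM), fibroblasts (236 to 307 CPM) and mural cells (200 to 268 CPM). Neutrophils (32.8 to 93.2 CPM) and B cells (42.7 to 96.4 CPM) had the lowest means, with overlapping ranges. Its log2 fold changes ran from -0.24 in ECs to 0.55 in B cells (SE 0.13 and 0.25, adjusted p = 0.454 and 0.713).

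Across the 15 classes the genes most like S100a8 and S100a9, among 7090 genes of at least 50 CPM in some class, were Retnlg (Pearson r = 0.970 and 0.964), Slfn4 and 9830107B12Rik. The genes most like S100a4 were Gm5547 (0.862), Jarid2 (0.836) and Ms4a6c (0.832), and those most like S100a6 were Vmp1 (0.789), Anxa1 (0.778) and Sorl1 (0.766). S100a10 was most like Tagln2 (0.811), Inf2 (0.775) and Sfxn1 (0.774), and S100a11 most like Atg3 (0.912), Ptgs2os2 (0.862) and Adam8 (0.856). S100a13 was most like Sdf2 (0.886), Ssna1 (0.866) and Ndfip2 (0.862). These are descriptions over classes that share 4 libraries.

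Partners and receptors were followed from a list of 17 genes. Over the 13 classes 135 pairs were tested, 3 were called higher and 1 lower in ERG CKO. They were 2 of 14 listed genes in ECs, 1 of 9 in B cells and 1 of 10 in dendritic cells. Of all genes, 3.06% were called in ECs, 0.292% in B cells and 0.433% in dendritic cells. Besides Ahnak in B cells, both others that rose did so in ECs. Plat went from 168 and 136 CPM in WT to 422 and 431 CPM in ERG CKO (log2 fold change 1.45, SE 0.15, adjusted p = 0.00710). Fgf1, the growth factor released with S100a13, went from 40.2 and 49.6 CPM to 99.7 and 111 CPM (1.18, SE 0.15, adjusted p = 0.0110). Anxa1, the S100a11 partner, fell in dendritic cells from 439 and 450 CPM to 184 and 224 CPM (-1.14, SE 0.19, adjusted p = 0.0479), a call that was lost without ERG CKO replicate 1 (adjusted p = 0.165). The receptor Ager was at 729 to 3200 CPM in epithelial cells and at 22.6 CPM or less in ECs, alveolar macrophages, B cells and neutrophils. Tlr4 was at 61.7 to 73.4 CPM in alveolar macrophages and 24.5 to 49.1 CPM in neutrophils, and Cd36 at 1733 to 2141 CPM in ECs. Of the 10 S100 genes outside the set, 19 pairs of a gene and a class were tested and edgeR called 0, with 1 at an unadjusted p under 0.05 (DESeq2 also called 0). S100a16 was high in ECs (452 to 611 CPM), S100a1 in alveolar macrophages (309 to 415 CPM) and S100g in epithelial cells (271 to 798 CPM).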

How the data were processed

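The authors deposited 1 matrix of raw UMI counts per gene and cell for the 4 lung libraries, with Cell Ranger 3.1.0 and the mm10 build named in the submitters' processing notes. Its 9363 cells each had at least 500 UMIs and 300 genes, and the study's own cell by cell tests were not used. Columns were assigned to libraries by their names.

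Cells were clustered with Seurat 5.3.0 (R 4.3.3) on 1987 variable genes, 30 components and a resolution of 0.8, with S100 genes, Erg and sex-linked genes left out. Clusters were named from fixed marker lists. Scrublet (in scanpy 1.11.5) called 60 cells (0.641%) doublets, which were kept. Counts were summed per library and class, since the mouse is the replicate, and tested with edgeR 4.0.16 (quasi-likelihood, TMM, filterByExpr) in the 13 classes with at least 10 cells in every library, with Benjamini-Hochberg adjustment over all genes tested in a class and a threshold of 0.05. Genotype differences were compared between classes with library as a block. The steps were tested on simulated counts. Shares of cells were also taken after thinning each cell to 1000 UMIs, or to 500 UMIs as an alternative. Positions come from GENCODE on GRCm38, and promoters from RefSeq.

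The 7 members and all lists were chosen with earlier results of these data known. All 7 members are named in every class. From the lists of other S100 genes and of partners and receptors, up to 4 called genes per class are named, and, for each member, the 3 genes most like it by Pearson correlation of mean log2(CPM + 10) over classes. Separate mice stand behind the 4 libraries, so p-values of the full fits measure the spread between 2 mice a group. With 1 library left out, its group holds 1 mouse, and the spread comes from the other group alone. Intervals and upper limits cover counting error only. Alternatives were DESeq2 1.42.0, RLE factors, no count filter, a replicate block, leaving out each library, doublets or cells over 10% mitochondrial UMIs, and resolutions of 0.4 and 1.2. After the data were seen, leaving out the highest cell of each gene, leaving out the 12 high cells, fits to single clusters and a crossed pairing were added.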

Additional observations from a re-analysis of the deposited data

Results flagged for a closer look

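In 4 of 21 tests the genotype difference of a member differed between 2 classes of the same libraries, by edgeR's quasi-likelihood test of the class by genotype term, adjusted over all genes. Over all genes 0.206% were called for neutrophils against T cells, 0.216% for alveolar macrophages against T cells and 0.84% for fibroblasts against ECs, and 3 of the 21 tests were called without the 12 cells of high S100a8 and S100a9 counts. S100a4 differed by -1.63 on the log2 scale between alveolar macrophages and T cells, with ERG CKO below WT in alveolar macrophages in 2 of 2 libraries. S100a8 differed by 4.06 and S100a9 by 6.48 between the same classes, and neither was called without those 12 cells. S100a6 differed by -1.40 between fibroblasts and ECs, with the CPM of ERG CKO below WT in fibroblasts and above WT in ECs in all 4 libraries. ERG CKO 2 had only 25 fibroblasts.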

How the results depend on the processing

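Of 70 pairs of a member and a class, 1 was called. The count was 2 with DESeq2, 2 without the highest cell of each gene and 2 at each of the other resolutions, 5 of 38 in single clusters, 15 of 91 without the count filter and 6 to 14 with 1 library left out (9 and 14 when the first and the second ERG CKO mouse was left out, 11 and 6 for the WT mice). The cause was not tested, though over all genes the calls also rose, from 424 to 2131 without the filter and to 607 to 1238 with a library left out. With the replicate number as a block 11 pairs were called, and 1711 genes in all. Samples with the same number correlated at -0.19 to 0.31 in their deviations over the 13 classes, with only 2 pairs, so the number is not a pairing. Crossed numbers in neutrophils gave 1 called gene, against 0 without a block and 0 with it.

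S100a6 in B cells lost its call with DESeq2. The DESeq2 calls were S100a4 and S100a6 in ECs. Calls gained by leaving out 1 mouse included S100a4 (-1.08) and S100a6 (-0.87) in T cells, S100a10 in neutrophils (2.55) and S100a10 in mural cells (1.22), each without ERG CKO replicate 2, S100a4 in dendritic cells (1.14) without WT replicate 2 and S100a6 in epithelial cells (3.25) without WT replicate 1. S100a8 and S100a9 in alveolar macrophages, T cells and both monocyte classes gained calls in 2 or 3 of the 4 fits each, in classes whose level rested on the 12 high cells. In neutrophils, with 1 library left out, the log2 fold change ranged from -0.12 to 0.36 for S100a8 and from -0.088 to 0.32 for S100a9, with the sign changed only without ERG CKO replicate 1. The S100a8 difference between alveolar macrophages and T cells changed sign without the highest cell of each gene (-1.79) and without the 12 high cells (-1.72). Between neutrophils and T cells the differences of 2.02 for S100a8 and 1.41 for S100a9 also changed sign, to -1.34 and -0.99 without the highest cell of each gene and to -1.66 and -1.25 without the 12 high cells. Over 27 results for single genes, 225 of 285 values under an alternative kept direction and side of the threshold, 37 passed it newly, 19 lost the call and 4 reversed. Mural cells numbered 14 and epithelial cells 19 in ERG CKO 2. S100a10 in neutrophils was at 24.6, 44.2, 203 and 29.3 CPM. Their NK cell markers were at 0, 9.81, 282 and 6.52 CPM and their B cell markers at 8.19, 4.91, 143 and 3.26 CPM. T cell markers were at 98.3, 14.7, 178 and 32.6 CPM, and endothelial markers at 98.3, 1629, 751 and 381 CPM. The part of these markers in the S100a10 value was not tested.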

Other observations

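Interstitial macrophages were too few to test (13, 7, 38 and 19 cells in WT 1, WT 2, ERG CKO 1 and ERG CKO 2). S100a6 was at 940, 293, 93.9 and 0 CPM there, and S100a4 at 411, 147, 43.4 and 21.6 CPM. The UMIs behind S100a6 were 103, 16, 13 and 0. Epithelial cells had the widest spread of S100a6 among tested classes, at 669 and 136 CPM in WT and at 2847 and 637 CPM in ERG CKO, so the genotypes overlapped (log2 fold change 1.75, SE 0.79, adjusted p = 0.782 by edgeR). The class pooled clusters 20, 24 and 27, led by Scgb1a1, Sftpc and Ccdc153. Cluster 27, with 7 cells in ERG CKO 1, held 705, 94.6, 7600 and 0 CPM of S100a6. Cluster 20 held 1251, 664, 1876 and 2215 CPM. It gave 46 of 62 epithelial cells in ERG CKO 1 and 8 of 29 in WT 2.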
